A study of Mus musculus with 6 samples.

Results

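The mitochondrial ribosomal proteins are the proteins, encoded in the nucleus, that build the ribosome inside the mitochondrion. The members described here are the 78 genes, of 22298 in the deposited table, whose symbol is Mrps or Mrpl followed by a number, and of these 29 carry the small-subunit name (Mrps) and 49 the large-subunit name (Mrpl). They were chosen by symbol alone, and 78 of 78 passed the filter on low counts. RNA was sequenced from MIN6, an insulin-secreting line derived from a mouse insulinoma, in 3 control samples without added epinephrine and 3 samples labelled chronic epinephrine exposure. In the scheme of the experiment, exposed cells were given 100 nM epinephrine over 3 days with 2 days of withdrawal after that, and the day of RNA collection is not stated in the sources used here. Control and exposed cells were otherwise the same line with no other treatment named, and MIN6 is a transformed line that stands in for the beta cell of the pancreatic islet. The labels only number the samples of a group, while the study's methods describe its data in general as coming from biological replicates and independent samples. The p-values measure the spread between these samples.

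Mitochondrial ribosomes translate the few mRNAs that mitochondrial DNA encodes, all of them for subunits of the respiratory chain and ATP synthase. Their proteins are made in the cytosol and imported, and they assemble on ribosomal RNA transcribed in the mitochondrion. Many have a counterpart in the bacterial ribosome, and others exist only in mitochondria. In beta cells the ATP that this machinery helps to make couples glucose metabolism to insulin release.

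Depth was similar in the groups, with 15017065 to 17457583 expected counts in the control samples and 15256957 to 18127171 after epinephrine. At this depth 3 counts, the limit that a count of 0 allows, correspond to 0.165 to 0.2 CPM (counts relative to the total of the sample), unscaled, and the lowest count of any member in any sample was 79. The CPM levels of genes given from here on are also scaled by the TMM method of edgeR. Control 1 stood apart from the other 5 samples in the members, as described below, so fold changes are given with and without it. Of 14 beta-cell markers 14 had counts, with summed levels of 55020, 68380 and 71830 CPM in controls 1 to 3 and 66310 to 68380 CPM after epinephrine, so the sum was lowest in control 1, although 6 of the 14 were highest there. A list of 20 hepatocyte markers summed to 12.4, 102 and 264 CPM in controls 1 to 3 and to 9.01 to 9.41 CPM after epinephrine, so it was highest in controls 2 and 3, and none of the 20 was at 0 in the whole table. The 8 fibroblast markers summed to 24.1, 1.66 and 8.64 CPM in controls 1 to 3 and to 19.6, 12.8 and 1.85 CPM after epinephrine, and 6 of the 8 were highest in control 1. The 8 leukocyte markers summed to 2.69 to 4.26 and 4.17 to 6.95 CPM in the respective groups, and the 6 markers of alpha and delta cells to 177 to 214 and 379 to 412 CPM. Of 10 exocrine markers 5 were at 0 (Ptf1a, Cel, Pnlip, Cpa1 and Prss2), and the sums stayed at or below 1.19 CPM. The part of these other cell types in the results was not tested, and in such bulk samples fewer cells of a type and less RNA per cell cannot be told apart.

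Transcripts of all 78 members were present, and their levels spanned 17.2-fold. On the FPKM scale, which the authors divided by transcript length so that genes can be compared, the mean over the 6 samples ran from 4.14 ± 0.383 (SD, n = 6) for Mrpl19 to 71.2 ± 14.0 for Mrpl20, with a median of 23.2 over the members and 10.3 over the 12747 genes tested. The highest large-subunit members were Mrpl20 and Mrpl30 (69.5 ± 15.03 FPKM), both counterparts of bacterial proteins, followed by Mrpl42 (68.2 ± 13.7 FPKM), which has no such counterpart and was added after its value was seen. The highest small-subunit members were Mrps21, at 63.7 ± 8.65 FPKM, and Mrps33, at 46.0 ± 8.51 FPKM. At the low end, Mrps35, Mrps26 and Mrpl47 were at 4.50 ± 0.677, 4.79 ± 0.429 and 5.48 ± 0.860 FPKM. These 3 overlap within their SDs, as do Mrpl20, Mrpl30, Mrpl42 and Mrps21 at the top. The order depends on the length used. Counts and FPKM imply effective lengths of 4998, 4161, 4279 and 3366 bases for Mrpl19, Mrps35, Mrps26 and Mrpl47. For Mrpl20, Mrpl30, Mrpl42 and Mrps21 they were 762, 736, 656 and 457 bases. The medians of the subunits were 21.7 FPKM for Mrps and 23.6 FPKM for Mrpl.

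**Figure D1:**
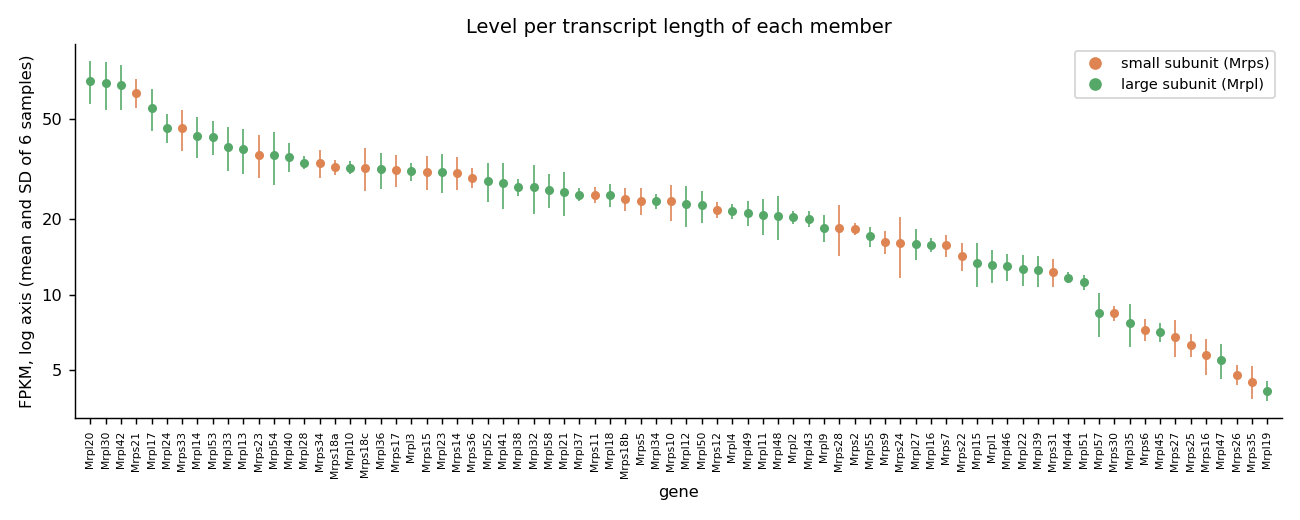
Mean FPKM of each of the 78 members on a log axis, ordered from the highest to the lowest; points are means and bars are SDs over the 6 samples, orange for Mrps and green for Mrpl. Levels fell from 71.2 FPKM for Mrpl20 to 4.14 FPKM for Mrpl19, with members of both subunits along the whole range.

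The comparison of the groups asks whether chronic epinephrine exposure changed the expression of the mitochondrial ribosome. In the fit of all 6 samples, no single member passed the test. The members as a list lay slightly above 0, with 62 higher and 16 lower after epinephrine (58 to 62 higher under the other scalings) and a median log2 fold change of 0.12, against -0.00 for all genes. In the quasi-likelihood test by edgeR, 0 of the 78 had a false discovery rate (FDR, the Benjamini-Hochberg adjusted p-value over all genes tested) under 0.05, where 2.63% of all genes did, 2.02% higher and 0.612% lower. At an unadjusted p under 0.05 there were 8 of 78 members, against 17.1% of all genes, 7 of them higher (Mrpl17, Mrps10, Mrps34, Mrps28, Mrpl54, Mrpl53 and Mrpl23, against 9.19% of all genes) and 1 lower (Mrps25, against 7.91%). The Wald test of DESeq2 called 1 member, Mrpl17, and 4.20% of all genes with a p-value, and limma on log2 FPKM called 0 members, where it called 2.06% of all genes with 1 added and 2.03% with 0.1 added. The groups of CPM values did not overlap for 17 members that were higher after epinephrine (14.3% of all genes) and for 1 that was lower, Mrps25 (13.0% of all genes).

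The subunits had similar summaries. Of the 29 Mrps members 22 were higher, with a median log2 fold change of 0.10 and a range from -0.25 (Mrps25) to 0.52 (Mrps24). Of the 49 Mrpl members 40 were higher, with a median of 0.14 and a range from -0.14 (Mrpl49) to 0.52 (Mrpl54). Without control 1, 15 Mrps members were higher, with a median of 0.01, and 25 Mrpl members, with a median of 0.00. Symbols do not always match the place of a protein, since Mrps30 and Mrps18a sit in the large subunit and Mrps36 belongs to the 2-oxoglutarate dehydrogenase complex. With these moved, the medians were 0.10 over 26 small-subunit and 0.14 over 51 large-subunit proteins, and -0.01 and 0.01 without control 1. The 48 members with a bacterial counterpart had a median of 0.12, with 42 higher, and the 29 without one had a median of 0.10, with 19 higher. Without control 1 these medians were 0.01, with 26 higher, and -0.03, with 14 higher.

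Control 1 was the low sample for most members. It held the lowest CPM of the 6 samples for 64 of 78 members (82.1%), against 34.8% of all genes tested, and lay below both other controls for 68 members (87.2%), against 44.4% of all genes tested. The summed CPM of the 78 members was 1708 in control 1, 2206 and 2305 in controls 2 and 3, and 2265, 2271 and 2288 in the epinephrine samples. Controls 2 and 3 thus lay on both sides of the 3 epinephrine samples, and control 1 was below them all. On the log2 CPM scale, control 1 lay below the mean of controls 2 and 3 by a median of -0.37 over the Mrps members and -0.50 over the Mrpl members. The same medians for the 3 epinephrine samples were -0.01, 0.01 and 0.07 for Mrps, and 0.01, 0.03 and 0.03 for Mrpl.

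**Figure D2:**
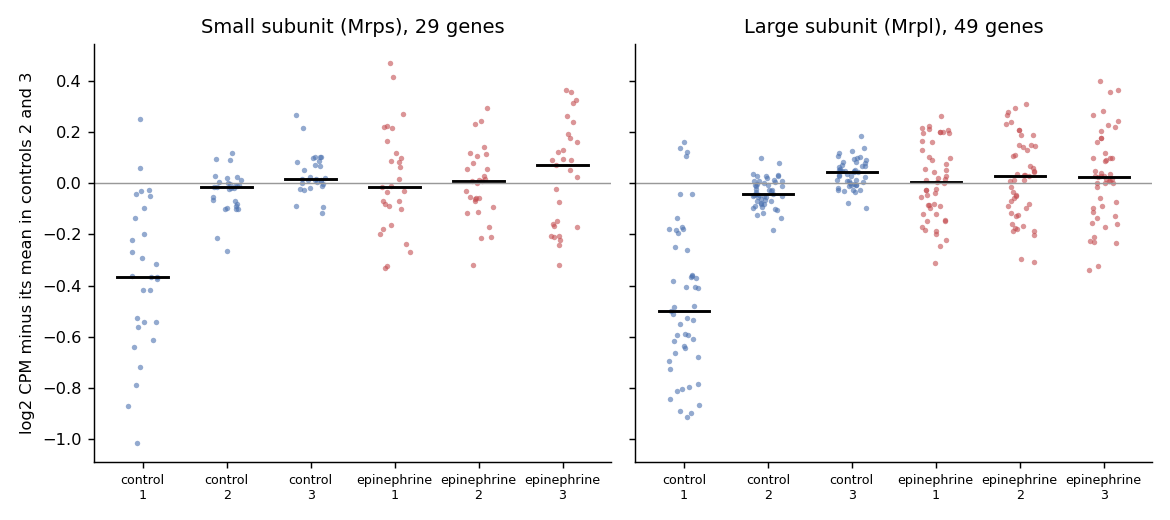
Level of each member in each sample, as log2 CPM minus its mean in controls 2 and 3, for 29 Mrps members (left) and 49 Mrpl members (right); each point is a gene and each black line the median. Control 1 sits low in both panels, with medians of -0.37 and -0.50, and the medians of the other 5 samples lie near 0.

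Without control 1, the members as a list showed no common direction, and the share of members called was below that of all genes. The median log2 fold change was 0.00, with 40 members higher and 38 lower. By the edgeR test of the remaining 5 samples, 10 of 78 members had an FDR under 0.05, where 21.6% of all genes did. Of these 6 were higher (12.1% of all genes) and 4 were lower (9.46% of all genes), and each subunit gave 3 of the higher and 2 of the lower. The CPM values of the groups did not overlap for 19 members that were higher (24.0% of all genes) and 14 that were lower (23.3% of all genes). The members called higher were Mrps28, Mrps10, Mrps34, Mrpl17, Mrpl54 and Mrpl30, and those called lower were Mrps25, Mrps33, Mrpl49 and Mrpl50. The lower calls rest on edgeR, since of the same 5 samples DESeq2 called 1 member higher (Mrpl17) and 0 lower. With limma on log2 FPKM, at either pseudocount, 3 were called higher (Mrpl17, Mrpl54 and Mrps10) and 0 lower. The higher calls of Mrps28, Mrps34 and Mrpl30 thus rest on edgeR as well. Of the 48 members with a bacterial counterpart 4 were called, all higher, and of the 29 without one 2 were called higher and 4 lower. These fits share 5 of their samples with the fit of all 6, so the values with and without control 1 are not independent. Control 1 was left out with earlier results of these data known to place it apart. The FDR values without it rest on controls 2 and 3 alone, take no account of that choice and may be too small.

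**Figure D3:**
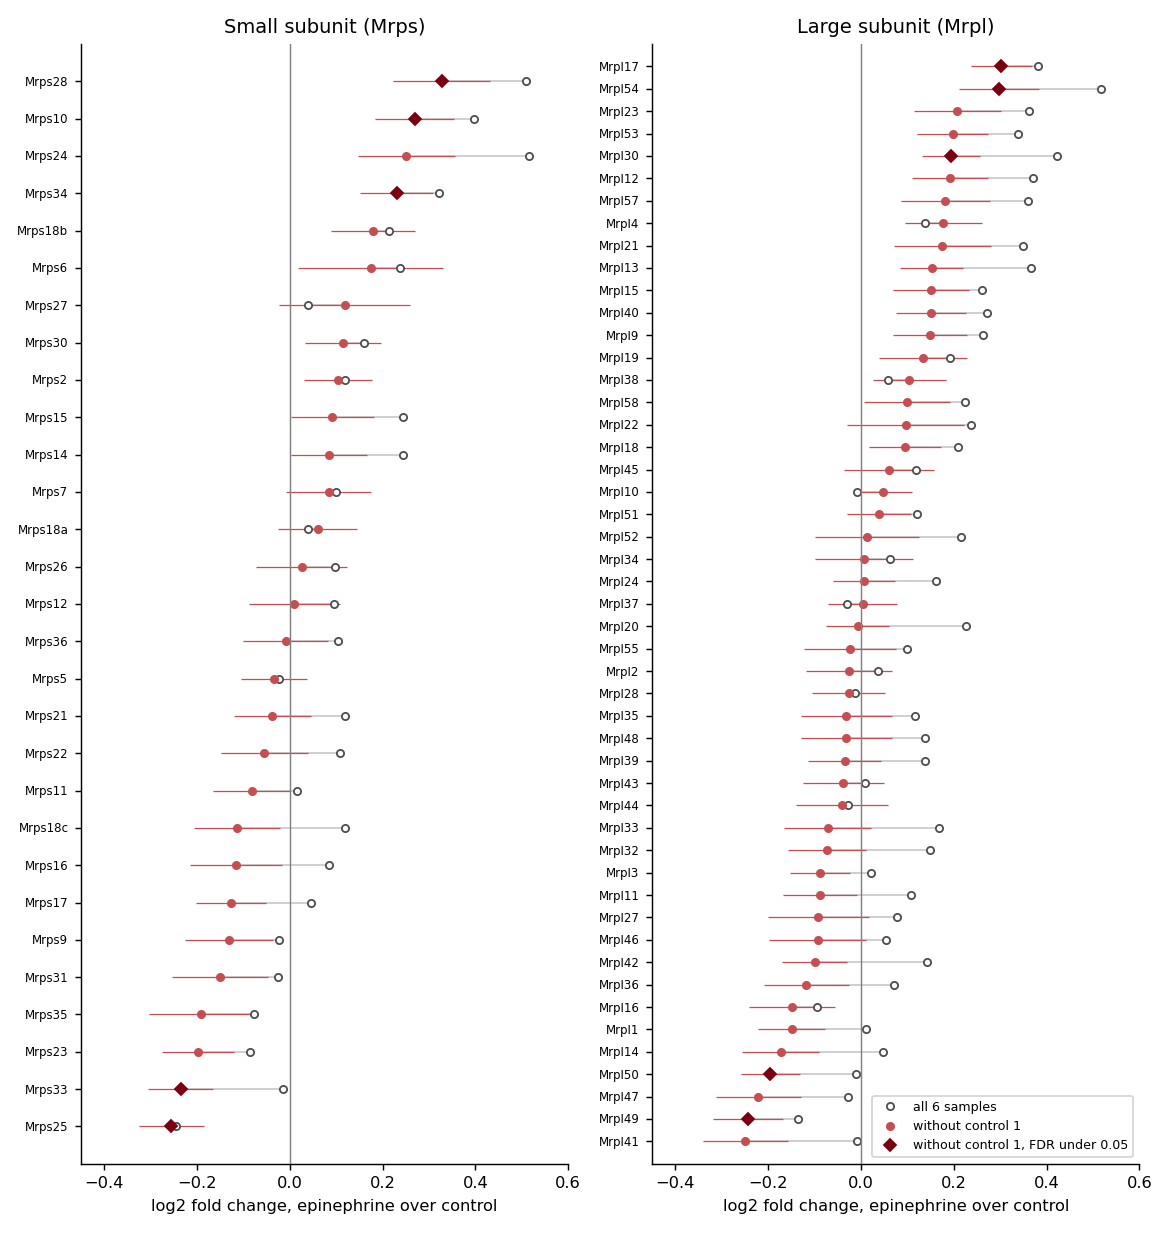
Log2 fold change, epinephrine over control, of each member with all 6 samples (open circles) and without control 1 (filled, with bars of 1 SE), for Mrps (left) and Mrpl (right), ordered by the value without control 1. Dark diamonds mark the 10 members at an FDR under 0.05 without control 1, from 0.33 (Mrps28) to -0.26 (Mrps25), and most open circles lie to the right of the filled ones.

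Among the large-subunit members called higher by edgeR without control 1, Mrpl17, a counterpart of a bacterial protein (ENSMUSG00000030879, chr7:105803206-105811099 on GRCm38, minus strand), had the smallest p-value of all members. Its CPM was 44.2, 51.5 and 53.6 in controls 1 to 3 and 60.1, 65.1 and 69.3 in the epinephrine samples. Every epinephrine sample lay above every control, and control 1 was the lowest. The log2 fold change was 0.38 ± 0.10 (SE, edgeR FDR = 0.10) with all 6 samples and 0.30 ± 0.07 (FDR = 0.00133) without control 1. The exact two-sided permutation test over the 6 samples gave p = 0.1, the smallest that 3 samples against 3 allow. In alternatives of the fit without control 1, Mrpl17 was called in 15 of 15, with edgeR, DESeq2 or limma FDR values from 1.70e-05 to 0.0266, and it was the only member of which this held. Of the 15, 2 leave out control 2 or control 3 as well, so that a single control is compared with 3 epinephrine samples and is assumed to vary as they do.

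Mrpl54, a large-subunit protein without a bacterial counterpart (chr10:81264713-81266934), had 12.0, 20.97 and 20.8 CPM in the controls and 25.03, 25.1 and 26.9 CPM after epinephrine. The groups did not overlap, and control 1 lay well below controls 2 and 3. Its log2 fold change was 0.52 ± 0.19 (SE, edgeR FDR = 0.220) with all samples and 0.30 ± 0.09 (FDR = 0.0135) without control 1. Mrpl30, again with a bacterial counterpart (chr1:37890477-37898535), had 28.7, 50.5 and 52.6 CPM in the controls and 59.1, 59.5 and 58.3 CPM after epinephrine. The epinephrine samples were close to each other and above all controls. The resulting log2 fold change was 0.42 ± 0.20 (SE, edgeR FDR = 0.328) with all samples and 0.19 ± 0.06 (FDR = 0.0249) without control 1. In the fits without control 1, limma called Mrpl54 but not Mrpl30, and DESeq2 called neither.

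Of the small-subunit members called higher by edgeR without control 1, only Mrps10 was also called by limma, and none by DESeq2. Mrps28 (chr3:8802146-8923918) had 8.67, 13.4 and 13.8 CPM in the controls and 18.9, 16.7 and 15.5 CPM after epinephrine. The groups did not overlap, with the lowest epinephrine sample close to controls 2 and 3. Its log2 fold change was 0.51 ± 0.18 (SE, edgeR FDR = 0.193) with all samples and 0.33 ± 0.11 (FDR = 0.0253) without control 1. Mrps10, a counterpart of a bacterial protein (chr17:47368887-47381417), had 16.8, 22.8 and 22.3 CPM in the controls and 26.3, 26.5 and 28.9 CPM after epinephrine. Here too the groups did not overlap. This gave a log2 fold change of 0.40 ± 0.13 (SE, edgeR FDR = 0.172) with all samples and 0.27 ± 0.09 (FDR = 0.0236) without control 1. Mrps34, a protein found only in mitochondrial ribosomes (chr17:24895116-24897502), had 24.5, 29.8 and 30.3 CPM in the controls and 35.1, 33.2 and 37.6 CPM after epinephrine. It was higher in every epinephrine sample, with a log2 fold change of 0.32 ± 0.11 (SE, edgeR FDR = 0.184) with all samples and 0.23 ± 0.08 (FDR = 0.0347) without control 1. Exons of Mrps34 overlap Nme3 on the same strand and Mapk8ip3 on the other, and 71.8% of the 50-base windows of its transcripts occur in those genes as well. Its counts are uncertain for that reason.

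Mrps25, a small-subunit protein without a bacterial counterpart (chr6:92169525-92184033), was the one member whose groups separated downwards with all 6 samples. Its CPM was 41.0, 41.6 and 42.3 in the controls and 35.6, 36.1 and 33.6 after epinephrine. Control 1 was here level with the other controls. The log2 fold change was -0.25 ± 0.08 (SE, edgeR FDR = 0.172) with all samples and -0.26 ± 0.07 (FDR = 0.00944) without control 1. Exons of Mrps25 overlap Nr2c2 on the other strand, 68.2% of its windows occur in Nr2c2 or Gm42933 as well, and whether the counting used strand is not stated, so reads of the overlapping genes may not be told apart.

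Like Mrps25, the other members called lower by edgeR were so only against controls 2 and 3, and by neither DESeq2 nor limma. Mrps33, a mitochondria-specific small-subunit protein, had 29.8, 55.9 and 47.6 CPM in the controls and 42.8, 44.5 and 44.7 CPM after epinephrine. Control 1 was the lowest and control 2 the highest of the 6 samples. Its log2 fold change was -0.02 ± 0.20 (SE, edgeR FDR = 0.976) with all samples and -0.24 ± 0.07 (FDR = 0.0166) without control 1. Mrpl49, a mitochondria-specific large-subunit protein, had 32.4, 39.1 and 44.6 CPM in the controls and 35.8, 36.9 and 33.0 CPM after epinephrine, which lay between control 1 and the other controls. The resulting log2 fold change was -0.14 ± 0.12 (SE, edgeR FDR = 0.627) with all samples and -0.24 ± 0.08 (FDR = 0.0217) without control 1. Mrpl50, also specific to mitochondria, had 35.0, 56.0 and 53.4 CPM in the controls and 48.6, 47.5 and 47.3 CPM after epinephrine, again between control 1 and the other controls. Its log2 fold change was -0.01 ± 0.16 (SE, edgeR FDR = 0.979) with all samples and -0.20 ± 0.06 (FDR = 0.0265) without control 1. In the alternatives of the fit without control 1, the members called there other than Mrpl17 passed in 7 (Mrps34) to 11 (Mrpl54 and Mrps10) of 15, with edgeR, DESeq2 or limma FDR values from 0.000410 to 0.450.

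**Figure D4:**
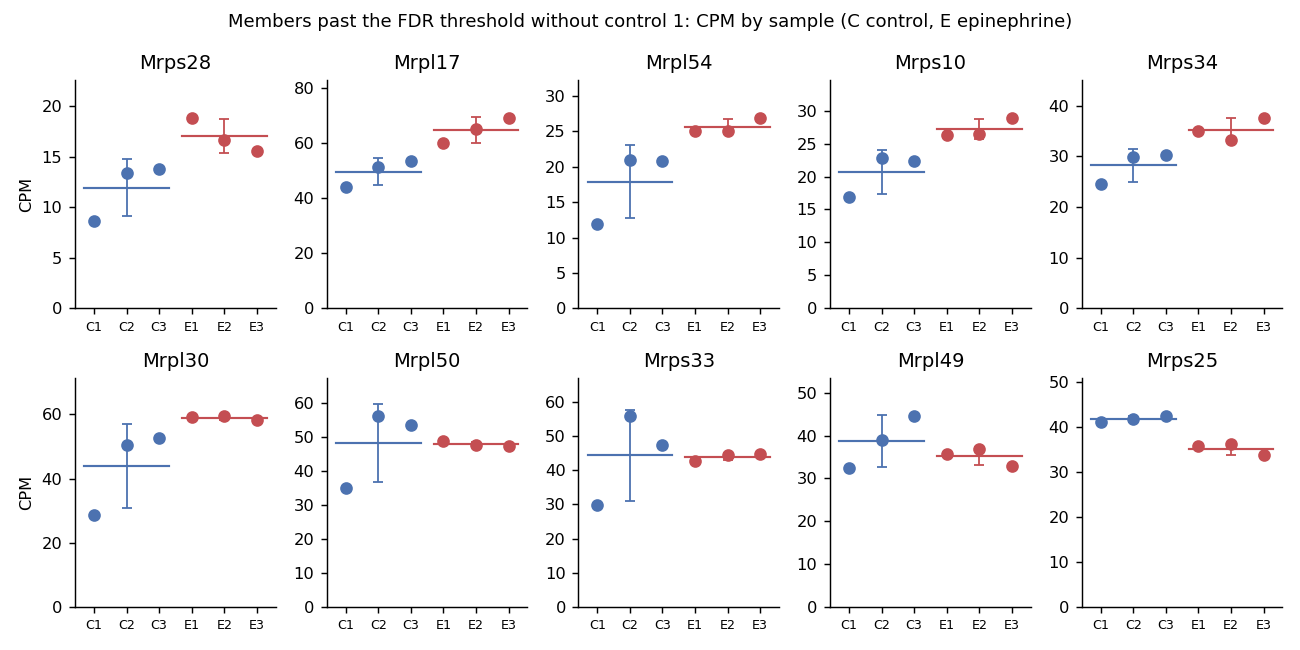
CPM by sample of the 10 members at an FDR under 0.05 without control 1, controls in blue (C1 to C3) and epinephrine samples in red (E1 to E3); each point is a sample, lines are means and bars SDs of the 3 samples of a group, control 1 included, and each axis starts at 0. Control 1 lies below the other controls for all 10 genes, by the least for Mrps25, where it was 41.0 against 41.6 and 42.3 CPM.

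The other members named by p-value or fold change were not called in either fit. Mrps24, with a bacterial counterpart, had 7.77, 15.8 and 15.8 CPM in the controls and 21.1, 16.7 and 18.6 CPM after epinephrine. Control 1 lay below the mean of controls 2 and 3 by -1.01 on the log2 scale, and the log2 fold change was 0.52 ± 0.24 (SE, edgeR FDR = 0.330) with all samples and 0.25 ± 0.10 (FDR = 0.0869) without control 1. Mrpl53 and Mrpl23 were higher in 3 of 3 epinephrine samples than in any control, with log2 fold changes of 0.34 ± 0.14 and 0.36 ± 0.16 (SE, edgeR FDR = 0.25 and 0.286) with all samples and of 0.20 ± 0.08 and 0.21 ± 0.09 (FDR = 0.0688 and 0.118) without control 1. Exons of Mrpl53 overlap the read-through gene Gm42688, which holds 82.0% of its windows. Mrpl40 had a log2 fold change of 0.27 ± 0.13, Mrpl16 of -0.09 ± 0.10, Mrps23 of -0.09 ± 0.13 and Mrps35 of -0.08 ± 0.16 (SE, edgeR FDR = 0.319, 0.685, 0.772 and 0.846). Without control 1 these were 0.15 ± 0.07, -0.15 ± 0.09, -0.20 ± 0.08 and -0.19 ± 0.11 (SE, edgeR FDR = 0.158, 0.275, 0.0724 and 0.239).

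Mrpl12 forms the stalk of the large subunit to which translation factors bind. It had 19.2, 28.5 and 31.2 CPM in the controls and 31.7, 36.6 and 33.7 CPM after epinephrine. The groups did not overlap, by a small gap between control 3 and the lowest epinephrine sample, and the log2 fold change was 0.37 ± 0.17 (SE, edgeR FDR = 0.309) with all samples and 0.19 ± 0.08 (FDR = 0.0969) without control 1. Mrpl45, which anchors the ribosome at the inner membrane, had 14.7, 16.8 and 16.6 CPM in the controls and 18.7, 16.5 and 17.0 CPM after epinephrine, and the groups overlapped. This gave a log2 fold change of 0.12 ± 0.11 (SE, edgeR FDR = 0.625) with all samples and of 0.06 ± 0.10 (FDR = 0.725) without control 1.

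The paralogs Mrps18a, Mrps18b and Mrps18c descend from a single bacterial protein and occupy different sites of the ribosome. Mrps18a had 28.7, 26.5 and 28.5 CPM in the controls and 30.8, 26.3 and 28.9 CPM after epinephrine. Mrps18b had 22.7, 24.2 and 24.3 CPM in the controls and 28.2, 24.3 and 30.2 CPM after epinephrine. Mrps18c had 12.4, 21.3 and 24.5 CPM in the controls and 21.7, 21.7 and 19.8 CPM after epinephrine. Mrps18b and Mrps18c share 30.2% and 22.9% of their windows with other genes, so their counts are less certain. Only for Mrps18c did control 1 lie well below the other 5 samples, by -0.87 on the log2 scale against controls 2 and 3, while for Mrps18a it lay above them by 0.06. None was called, with log2 fold changes of 0.04 ± 0.10, 0.21 ± 0.11 and 0.12 ± 0.22 (SE, edgeR FDR = 0.867, 0.358 and 0.822). Without control 1 these were 0.06 ± 0.09, 0.18 ± 0.09 and -0.11 ± 0.09 (SE, edgeR FDR = 0.684, 0.172 and 0.427), so that Mrps18c changed sign. Mrps30, in the large subunit despite its name, had 24.8, 29.0 and 25.5 CPM in the controls and 29.5, 29.5 and 29.8 CPM after epinephrine (log2 fold change 0.16 ± 0.10, SE, edgeR FDR = 0.435, and 0.12 ± 0.08, FDR = 0.350, without control 1). Mrps36, of the 2-oxoglutarate dehydrogenase complex, had 16.1, 19.6 and 22.2 CPM in the controls and 20.6, 20.4 and 21.2 CPM after epinephrine, and shares 17.3% of its windows with other loci, among them its pseudogenes. Its log2 fold change was 0.10 ± 0.13 (SE, edgeR FDR = 0.727), with control 1 again the lowest sample, and -0.01 ± 0.09 (FDR = 0.964) without it.

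The difference of control 1 from the other controls went along with transcript length and GC content across all genes. The effective length that the deposited counts and FPKM values imply had a median of 1125 bases over the members and 2806 bases over all genes tested. Between log2 effective length and the log2 difference of control 1 from controls 2 and 3, Pearson's r over 12742 genes, none of them a replicate of another, was 0.46, and across the 78 members it was 0.37. For GC content the same r was 0.39 over those genes and 0.25 over the members. For control 2 minus control 3, r over all genes was 0.17 with log2 effective length and -0.19 with GC content. Over the members these were -0.03 and -0.18. By ranks (Spearman's rho) the values of control 2 minus control 3 over all genes were 0.28 with length and -0.32 with GC content. Those of control 1 minus controls 2 and 3 were 0.47 and 0.42. Controls 2 and 3 thus also differed from each other with length and GC content across all genes. Between GC content and the log2 fold change without control 1, r was 0.14 over all genes and 0.31 over the members. Of the members, 31 had under 1000 bases, and their median difference was -0.54, the same as for all genes of that length. For 31 members of 1000 to 2000 bases the median was -0.36, against -0.19 for all genes, and for 16 members of 2000 bases or more it was -0.37, against 0.10. The medians of the longer members were thus below those of all genes of their length, and that of the short members was not. When the edgeR fit of all 6 samples was given an offset for the length and GC content of transcripts, 42 of 78 members were higher, the median log2 fold change was 0.05, and 2 members were called, Mrpl17 (0.41, FDR = 0.0151) and Mrpl30 (0.33, FDR = 0.0403), where 11.3% of all genes were. The longest annotated transcript of Mrpl17 has 7300 bases against an effective length of 1056, and that of Mrpl30 has 1757 against 736. The offset of these members therefore depends on which length is used. Over all alternatives of the fit with 6 samples, the FDR ran from 0.00133 to 0.390 for Mrpl17 and from 0.0249 to 0.605 for Mrpl30. The part of RNA quality in control 1 was not tested.

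**Figure D5:**
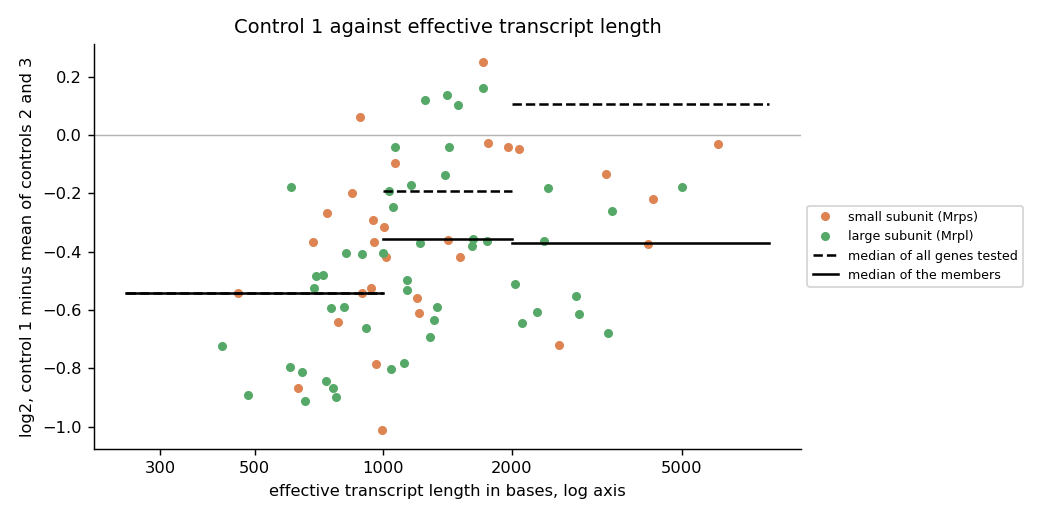
Difference of control 1 from the mean of controls 2 and 3 in log2 CPM against effective transcript length in bases (log axis) for the 78 members, orange for Mrps and green for Mrpl; solid lines are medians of the members and dashed lines medians of all genes tested in 3 classes of length. The lines coincide near -0.54 under 1000 bases and part above it, to -0.37 and 0.10 in the longest class.

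Promoters were examined because the members are often described as targets of the factors NRF1, GABPA (an ETS factor) and YY1, activators of nuclear genes for mitochondria. RefSeq promoter windows on GRCm38.p6, of 250 bases before and 50 from the start on, were found for 69 of 78 members, 75 windows in all. Windows of 7 of the 10 members called without control 1 were among them, and the 80 bases before the start of each are shown, with a match to 1 of the 3 motifs in capitals and positions counted from the start base as 0.
Mrpl17, chr7:105811088-105811167, minus strand: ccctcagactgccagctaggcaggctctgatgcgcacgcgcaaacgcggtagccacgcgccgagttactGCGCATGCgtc
Mrps10, chr17:47369117-47369196, plus strand: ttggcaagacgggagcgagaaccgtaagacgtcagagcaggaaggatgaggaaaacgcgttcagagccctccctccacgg
Mrpl30, chr1:37890397-37890476, plus strand: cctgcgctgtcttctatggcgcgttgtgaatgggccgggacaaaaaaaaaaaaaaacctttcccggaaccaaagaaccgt
Mrps25, chr6:92184024-92184103, minus strand: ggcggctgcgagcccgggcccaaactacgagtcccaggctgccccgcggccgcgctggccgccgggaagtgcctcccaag
Mrpl49, chr19:6057756-6057835, minus strand: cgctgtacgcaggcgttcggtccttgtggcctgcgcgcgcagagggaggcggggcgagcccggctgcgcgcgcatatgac
Mrps33, chr6:39810937-39811016, minus strand: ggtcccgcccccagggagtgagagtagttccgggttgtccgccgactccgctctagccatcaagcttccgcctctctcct
Mrpl50, chr4:49521084-49521163, minus strand: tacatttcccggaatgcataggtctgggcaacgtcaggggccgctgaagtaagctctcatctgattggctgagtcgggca

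Of these 7 members only Mrpl17, the one with the smallest p-value, held any of the 3 motifs in its window, an NRF1 match from -11 to -4. The motifs searched, on both strands, were GCGCATGC for NRF1, CCGGAAGT for ETS factors and AAGATGGCG for YY1, none of which contains another as written. NRF1 letters were in 8 of 75 member windows (10.7%), against 5.14% of the 13051 windows of genes tested and 2.71% of all 32851 windows. ETS letters were in 12 (16.0%, against 7.78% and 3.89%), and YY1 letters in 8 (10.7%, against 2.87% and 1.4%). At least 1 of the 3 was in 26 member windows (34.7%), against 14.8% of those of genes tested and 7.57% of all. By subunit, NRF1 letters were in 7 of 48 Mrpl windows and 1 of 27 Mrps windows, ETS letters in 8 and 4, and YY1 letters in 4 and 4. An example of each motif close to the start is shown, again as the 80 bases before it with matches in capitals, with 2 matches in Mrpl32 and the ETS and YY1 letters on the strand opposite to the gene.
Mrpl32, NRF1, chr13:14613038-14613117, minus strand: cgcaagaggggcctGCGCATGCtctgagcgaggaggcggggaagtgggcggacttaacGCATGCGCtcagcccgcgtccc
Mrps26, ETS, chr2:130563677-130563756, plus strand: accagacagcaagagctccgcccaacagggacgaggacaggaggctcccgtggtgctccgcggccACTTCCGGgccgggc
Mrpl36, YY1, chr13:73330929-73331008, plus strand: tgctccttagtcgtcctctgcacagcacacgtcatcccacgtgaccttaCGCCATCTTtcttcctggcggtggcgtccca

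Members with and without a motif had similar medians. Without control 1, 13 of the 26 members with a motif were higher after epinephrine, with a median log2 fold change of -0.01, and so were 19 of the 43 members with a window and no motif, with a median of -0.02. A match is a description of letters and not of binding.

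Of genes that act with the members, 1 was called in the fit of all 6 samples. Ppargc1a, which encodes the coactivator PGC-1alpha of mitochondrial gene expression, had 3.76, 4.12 and 3.69 CPM in the controls and 7.24, 8.13 and 7.60 CPM after epinephrine. Every epinephrine sample was above every control and control 1 was not apart. The log2 fold change was 0.99 ± 0.14 (SE, edgeR FDR = 0.00907, and from 8.54e-05 to 0.109 over the alternatives of the fit with 6 samples). It was 1 of 11 listed regulators, and the other 10 were not called, where 2.63% of all genes were called. The factors whose motifs were searched had little difference, with log2 fold changes of -0.04 ± 0.09 for Nrf1, -0.06 ± 0.10 for Gabpa and -0.09 ± 0.09 for Yy1 (SE, edgeR FDR = 0.876, 0.785 and 0.635), and of -0.03, -0.14 and -0.03 (FDR = 0.853, 0.114 and 0.790) without control 1. Without control 1, 4 of 11 regulators were called, all higher, where 12.1% of all genes were. They were Ppargc1a (0.97), Pprc1, a relative of Ppargc1a (0.62), Myc (0.60) and Gabpb1, the partner of Gabpa (0.27), the last 3 named after their values were seen. With all 6 samples none of these 3 was called by edgeR, and over the alternatives of that fit their FDR went up to 0.745, 0.396 and 0.568. Alternatives of the fit without control 1 are given here for the members only. Pprc1 was at 30.2 CPM in control 1, above the 26.3, 27.4 and 26.5 CPM of the epinephrine samples, and at 17.5 and 17.4 CPM in controls 2 and 3.

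The other listed groups gave 0 calls in the edgeR fit of all 6 samples, where 2.63% of all genes were called. These were 5 ribosomal proteins with another symbol, 28 assembly factors, 15 translation factors, 10 genes of mitochondrial transcription and 13 mRNAs encoded in mitochondrial DNA. At an unadjusted edgeR p under 0.05 there was 1 gene (the assembly factor C1qbp), against 17.1% of all genes. The 5 ribosomal proteins with another symbol (Dap3, Ptcd3, Chchd1, Aurkaip1 and Gadd45gip1) resembled the members, with control 1 the lowest sample for 5 of 5 and a median log2 fold change of 0.17 with all samples and -0.00 without control 1. The assembly factors had control 1 as the lowest sample for 12 of 28 and the translation factors for 5 of 15. For the genes of mitochondrial transcription it was 7 of 10, against 34.8% of all genes tested. Without control 1, where edgeR called 21.6% of all genes, it called 2 of the 28 assembly factors, both higher, C1qbp (0.34 ± 0.08, SE, FDR = 0.00237) and the GTPase Noa1 (0.30 ± 0.10, FDR = 0.0269). Of the 15 translation factors it called Tsfm higher (0.33 ± 0.11, SE, edgeR FDR = 0.0316) and the release factor Mtrf1l lower (-0.38 ± 0.12, FDR = 0.0255). Of the 10 genes of transcription, Tfam, which packages mitochondrial DNA, and Mterf1a were called lower (-0.19 ± 0.07 and -0.73 ± 0.18, SE, edgeR FDR = 0.0424 and 0.00364). Over the alternatives of the fit with 6 samples, the FDR of these 6 genes, named after their values were seen, went up to between 0.363 and 0.985. How their calls hold in alternatives of the fit without control 1 is not given here.

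The mRNAs that the mitochondrial ribosome translates summed to 55070, 86430 and 90470 CPM in the controls and to 75030, 89590 and 77380 CPM after epinephrine. Control 1 was the lowest of the 6 samples for 13 of 13, and epinephrine sample 2 lay with controls 2 and 3, above the other epinephrine samples. With all samples the median log2 fold change was 0.06, with 10 higher. Without control 1 it was -0.15, with 12 of 13 lower and 5 called lower by edgeR, where 9.46% of all genes were. The 5 were mt-Nd5, mt-Cytb, mt-Co2, mt-Nd6 and mt-Atp6, named after their values were seen. Over the alternatives of the fit with 6 samples their FDR went up to between 0.978 and 0.999. How these calls hold in alternatives of the fit without control 1 is not given here. With all 6 samples their log2 fold changes lay between -0.06 and 0.02, with mt-Co2 and mt-Atp6 above 0. These 13 RNAs come from a few long precursors and are not independent of each other. The mitochondrial ribosomal RNAs were not analysed here.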

How the data were processed

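Expected counts and FPKM values were deposited by the authors for each gene and sample of the 3 control and 3 chronic epinephrine samples. The expected counts were not scaled between samples, and FPKM was scaled by the authors to transcript length and sample total. The submitters' processing notes name the build GRCm38; the aligner and the counter are not given in the sources used here. Expected counts were rounded to whole numbers (12.1% of nonzero values were not whole) and tested with edgeR 4.0.16 in R 4.3.3 (filterByExpr, TMM, quasi-likelihood test, Benjamini-Hochberg over 12747 genes, threshold 0.05) with no covariate; the standard error is the log2 fold change divided by the root of the F statistic. The same test was run without control 1, a sample that earlier results of these data were known to place apart. Single members also had an exact two-sided permutation test, whose smallest p with 3 against 3 is 0.1, reached by every member whose groups do not overlap.

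Alternatives were other scalings (DESeq2 size factors, upper quartile, library size), DESeq2 1.42.0 with its Wald test, limma 3.58.1 on log2 FPKM (pseudocount 1 or 0.1), omission of the filter, at least 10 counts in every sample, a replicate block, an offset for length and GC content of transcripts (splines with 4 degrees of freedom) and each sample left out. Members named are, in each subunit, the 6 smallest p-values, the 3 largest and 3 smallest fold changes, the 5 smallest p-values without control 1, the 2 highest and 2 lowest by FPKM, and Mrps18a, Mrps18b, Mrps18c, Mrps30, Mrps36, Mrpl12 and Mrpl45. Positions, lengths and overlaps came from GENCODE mouse release 21 on GRCm38, and promoter windows from RefSeq. The rule by symbol and the lists were set with earlier results of these data known. The scripts were tested on simulated counts.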

Additional observations from a re-analysis of the deposited data

How the results depend on the processing

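With all 6 samples edgeR called 0 members and 2.63% of all genes. The number of members rose to 1 (1 higher) with the Wald test of DESeq2, which called 4.20% of genes with a p-value. It rose to 2 (2 higher) with the length and GC offset, where 11.3% of all genes were called. Without control 1 it was 10 (6 higher, 4 lower), where 21.6% of all genes were called. With any other sample left out it was 0, where 0.364% to 1.48% of all genes were called. It was 0 under the other alternatives, the replicate block included, where 178 genes were called in all and the members' median was 0.13. The replicate numbers were not treated as pairs, as no source ties them to a common batch and deviations of same-numbered samples correlated at 0.0502, 0.0677 and -0.0488 across genes. The median log2 fold change, 0.12, went to 0.00 without control 1 (Mrps 0.10 to 0.01, Mrpl 0.14 to 0.00), to 0.18 without control 2, to 0.20 without control 3 (71 of 78 higher) and to 0.05 with the length and GC offset (Mrps -0.00, Mrpl 0.05). The pooled SD of the sample medians within groups was 0.173 over the members, control 1 included, and no median was tested against it. In alternatives chosen after seeing the data, the 10 calls without control 1 became 1 with the Wald test of DESeq2 (10.5% of 17178 genes with a p-value). With limma they became 3 at either pseudocount (12.0% and 12.3% of 12966 genes past the filter). In each of these alternatives 0 members were called lower. With the replicate block 14 members were called (24.2%), 9 of them among the 10. With the length and GC offset 10 were called (24.4%), 7 of them among the 10. Mrpl41, named after its value was seen, was not called in the main fit without control 1 (edgeR FDR = 0.0516). It was called lower with the block, with the offset and with the other scalings. With an epinephrine sample left out as well, 5 to 11 members were called, where 16.6% to 21.02% of all genes were (5 members and 16.6% without epinephrine sample 3). A fit that leaves out control 2 or control 3 as well rests on a single control, assumed to vary like the epinephrine samples.

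Among the 30 named members, some directions turned. With the offset they turned for Mrps18a (-0.12), Mrps18c (-0.0508), Mrps21 (-0.0893) and Mrps36 (-0.10), with limma for Mrps33 (0.00553 with 1 added and 0.00658 with 0.1 added), and with the block for Mrpl50 (0.0155) and Mrps33 (0.0267). With a sample left out, values ran from -0.00712 to 0.43 for Mrpl20, -0.0724 to 0.0105 for Mrpl37, -0.22 to 0.0858 for Mrpl47, -0.20 to 0.11 for Mrpl50, -0.0153 to 0.0988 for Mrps18a, -0.11 to 0.32 for Mrps18c, -0.0376 to 0.22 for Mrps21, -0.24 to 0.18 for Mrps33, -0.19 to 0.11 for Mrps35 and -0.00901 to 0.21 for Mrps36. The cause was not tested. Every member had at least 79 counts in each sample.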
